A study of Mus musculus with 14 samples.

Results

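To follow one transcription factor from a precursor with smooth muscle, endothelial and blood potential to blood progenitors, the C/EBPβ binding sites of hemangioblasts (HB) were set against those of hematopoietic progenitors (HP). The HB list held 715 peaks and the HP list 2716 peaks, each 400 bp wide. Peaks centred 500 bp or less from a tRNA gene (403 such genes are annotated) were set aside, 68 in HB and 189 in HP. This left 647 HB peaks and 2527 HP peaks, together 3174 of the 158488 peaks in the 14 lists of the series. A peak that overlapped a peak of the other list by at least 1 bp was called shared, and the remaining peaks were called HB only or HP only. All cells were derived in culture from a mouse embryonic stem (ES) cell line of strain 129 with a GFP reporter for Brachyury (Bry), a mesoderm gene, and were sorted by surface markers. HB cells were Bry.GFP+ and FLK1+, and HP cells were CD41+. For comparison, further C/EBPβ lists came from mesoderm (MES, Bry.GFP+ and FLK1-), hemogenic endothelium (HE, Bry.GFP+, Tie2+, Ckit+ and CD41-) and macrophages (MAC, CD11b+), all with the same Santa Cruz antibody. Every factor was represented by 1 list at each stage where it was mapped, with no replicate, so each test below compares lists of peaks and not conditions. The lists hold positions and no expression values, and the identity of the sorted cells was taken from the labels.

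C/EBPβ is a basic leucine zipper factor that binds DNA as a dimer, typically at a short palindrome. In blood it is best known from the myeloid lineage, where it acts together with PU.1, the ETS factor encoded by Spi1, at genes of monocytes and macrophages. C/EBP proteins also pair with ATF4, a factor of the amino acid and stress response, and these pairs bind a composite element made of a C/EBP part and an ATF part.

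The sequences below show the C/EBP words that differed between the peak classes and the composite word found at stress response genes. They were read from the RefSeq genome of GRCm38 (mm10), plus strand, and the capitals mark the searched word nearest to the peak centre. The first set shows shared peaks with the palindrome TTGCGCAA, at Tal1 (a master regulator of blood specification), Smad6 (an inhibitor of BMP signalling), Nfil3 (a basic leucine zipper repressor) and Cotl1 (an actin-binding protein).
Tal1 intron, chr4:115056985-115057044: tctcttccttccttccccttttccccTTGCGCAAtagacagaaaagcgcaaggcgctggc
Smad6 promoter, chr9:64022065-64022124: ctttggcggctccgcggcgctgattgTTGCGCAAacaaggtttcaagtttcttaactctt
Nfil3 promoter, chr13:52981275-52981334: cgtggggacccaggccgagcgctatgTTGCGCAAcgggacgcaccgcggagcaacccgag
Cotl1 promoter, chr8:119840639-119840698: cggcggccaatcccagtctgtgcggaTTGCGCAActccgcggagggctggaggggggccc

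The second set shows HP only peaks with the word TTGCACAA, or TTGTGCAA where it lies on the minus strand, at Cebpb itself, Spi1, Lmo2 (a bridging factor of blood transcription complexes) and Csf3r (the receptor for granulocyte colony-stimulating factor).
Cebpb downstream region, chr2:167760094-167760153: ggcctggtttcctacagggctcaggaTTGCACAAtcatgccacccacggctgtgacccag
Spi1 intron, chr2:91098336-91098395: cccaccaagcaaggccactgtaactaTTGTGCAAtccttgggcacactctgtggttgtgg
Lmo2 upstream region, chr2:103947036-103947095: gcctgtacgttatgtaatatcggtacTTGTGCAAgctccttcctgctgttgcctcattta
Csf3r upstream region, chr4:126017817-126017876: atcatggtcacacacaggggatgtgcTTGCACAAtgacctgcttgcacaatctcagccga

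The third set shows the composite C/EBP-ATF word TGATGCAA, or TTGCATCA on the minus strand, at stress response promoters. Ddit3 encodes CHOP, a stress-induced C/EBP family member, and its peak was shared. Chac1, which degrades glutathione, and Slc7a11, a subunit of the cystine transporter, had HP only peaks.
Ddit3 promoter, chr10:127290466-127290525: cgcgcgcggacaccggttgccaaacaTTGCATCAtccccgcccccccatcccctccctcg
Chac1 promoter, chr2:119351023-119351082: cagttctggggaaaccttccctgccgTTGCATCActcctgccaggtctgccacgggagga
Slc7a11 promoter, chr3:50443627-50443686: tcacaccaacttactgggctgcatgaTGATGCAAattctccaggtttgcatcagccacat

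The last set shows the palindrome in HB only peaks, upstream of Insrr (a receptor related to the insulin receptor) and at the start of Ids (the lysosomal enzyme iduronate sulfatase). Only 30 bases are given for Ids.
Insrr promoter, chr3:87796056-87796115: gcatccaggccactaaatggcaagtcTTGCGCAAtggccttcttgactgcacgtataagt
Ids promoter, chrX:70365083-70365112: cacgaatgcgcTTGCGCAActctcttctgt

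Most C/EBPβ sites of HB cells were still in the list of HP cells, whereas most sites of HP cells were not in the list of HB cells. Of the 647 HB peaks, 377 were shared (58.3%, exact Clopper-Pearson 95% interval 54.4 to 62.1), and of the 2527 HP peaks the same number was shared (14.9%, 13.6 to 16.4). There were 270 HB only and 2150 HP only peaks. Shared peaks lay almost at the same place in both lists. The median shift between their centres was 15 bp, the largest was 94 bp, and 340 pairs (90.2%) lay within 50 bp of each other. HB only peaks lay far from HP peaks. The closest lay 554 bp from an HP peak, 7 lay within 10 kb of one, and the median gap was 266115 bp. The authors chose the cut-off of each list by eye, and it was stricter for HP than for HB. In either direction, a site missing from a list therefore cannot be told apart from a site below that list's cut-off. In the study's PCR checks before sequencing, C/EBPβ enrichment was recorded at target sites for HP, and none was recorded for HB or MES. The authors sequenced those samples regardless, so the HB only peaks come from a sample without recorded enrichment in that check.

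The classes differed in how far their sites were seen at other stages. Of the shared peaks, 314 (83.3%) were also in the MES list and 368 (97.6%) in the MAC list. Of the HP only peaks, 236 (11.0%) were in the MES list and 2047 (95.2%) in the MAC list. Of the HB only peaks, 51 (18.9%) were in the MES list and 91 (33.7%) in the MAC list. The lists differ in length and in the p cut-off. Among the C/EBPβ lists the cut-off was most lenient for MAC, strictest for HE and the same for MES and HB. The MES list, with 1177 peaks, held 0.0445% and the MAC list, with 55471 peaks, 1.71% of 127965 genomic windows of 400 bp spaced every 20 kb on the same chromosomes. By Fisher's exact test (two-sided, Benjamini-Hochberg adjusted over 84 comparisons of 28 measures in 3 pairs of classes), HB only peaks were in the MAC list less often than HP only peaks, with a difference of -61.5 percentage points (95% Newcombe interval -66.9 to -55.6, adjusted exact p = 5.5e-124). They were in the MES list more often than HP only peaks, by 7.91 points (3.47 to 13.2, adjusted exact p = 0.001). Shared and HP only peaks differed in their MAC share by 2.40 points (0.160 to 3.90, adjusted exact p = 0.07), which did not pass the threshold of 0.05. With the peaks at tRNA genes kept this difference was -1.08 points, and without regions bound in 9 or more lists it was 2.64 points (adjusted exact p = 0.038).

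**Figure D1:**
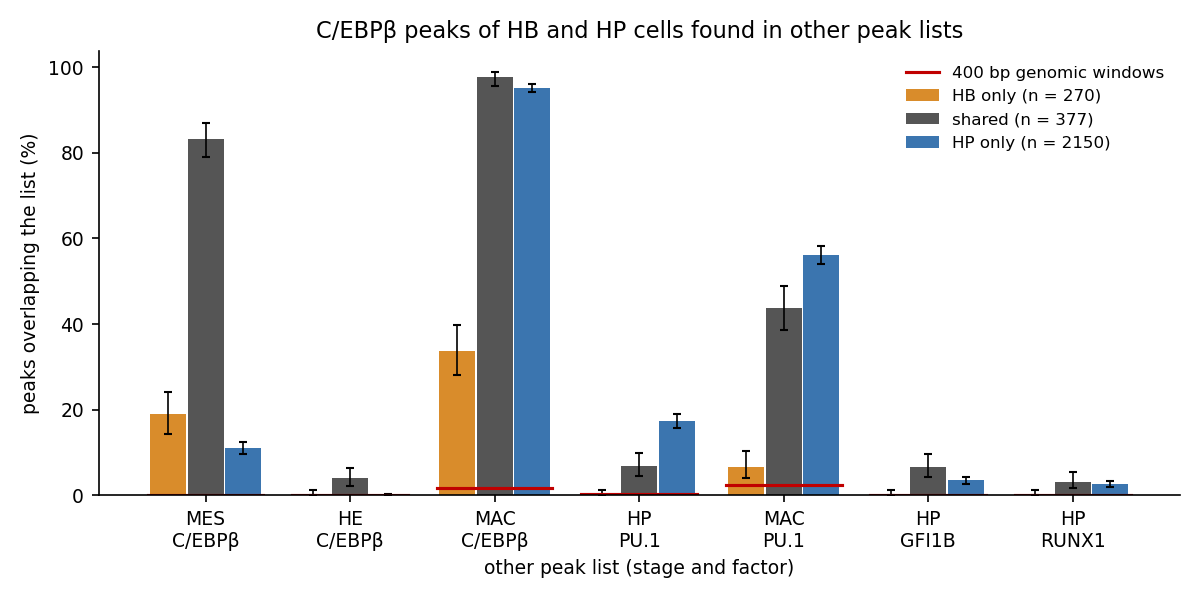
The share of HB only, shared and HP only C/EBPβ peaks, in percent, that overlapped each of 7 other peak lists, with exact 95% binomial intervals as error bars and the share of genomic windows as a red line. The shared and HP only bars are at 97.6% and 95.2% for the MAC C/EBPβ list, and the HB only bar is at 33.7%, while for the MES list the shared bar stands alone at 83.3%.

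A set of 13 shared regions was bound by C/EBPβ at all 5 stages, HE included. The HE list held only 132 peaks, had the strictest cut-off and was made from fewer cells with a carrier protocol. The nearest coding genes of the 13 regions were Cotl1, Btbd19, Rcn1, Cdkl4, Rad23b, Ctr9, Rpia, Ptpn12, Sec23ip, Tal1, Klrb1b, Rpp21 and Sbf2. Of these regions 12 held a C/EBP word. The exception was the Rpp21 region, which was a peak in all 14 lists whatever the antibody. At Tal1, the peak at chr4:115056815-115057214, 588 bp downstream of a transcription start site (TSS), was bound by C/EBPβ at all 5 stages, by PU.1 in HP and MAC, and by GATA1 and GATA2 in HP. A second Tal1 peak 21189 bp upstream was in the MES, HB, HP and MAC lists of C/EBPβ and in no list of another factor. Rad23b, whose product recognises damaged DNA, and Rpia, an enzyme of the pentose phosphate pathway, were bound 254 bp and 35 bp upstream of their TSS.

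Shared peaks lay closest to genes, and HB only peaks farthest. Within 2 kb of the TSS of a protein-coding transcript, called promoter here, lay 169 of 377 shared peaks (44.8%), 582 of 2150 HP only peaks (27.1%) and 21 of 270 HB only peaks (7.78%), against 3.37% of the windows. All 3 pairs differed by Fisher's exact test (adjusted exact p = 6.6e-26 for HB only against shared, 2.6e-13 for HB only against HP only and 9.5e-11 for shared against HP only). The median distance from a coding TSS was 4504 bp for shared, 12743 bp for HP only and 40615 bp for HB only peaks, and 68340 bp for the windows. A TSS lay within 100 bp of the centre of 57 shared, 133 HP only and 4 HB only peaks. Median GC content followed the same order, with 52.5%, 48.5% and 47.6% against 41.5% in the windows, and the median number of CpG dinucleotides per peak was 12, 6 and 4 against 2. By annotation, 44.1% of HB only, 31.0% of shared and 44.0% of HP only peak centres lay in introns.

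**Figure D2:**
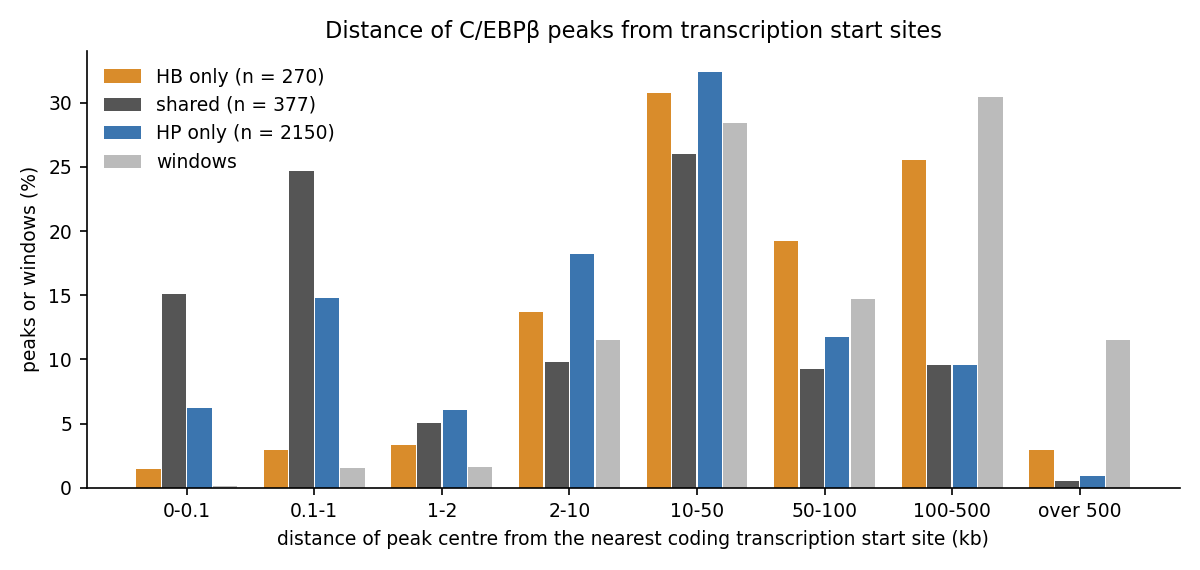
The distance of peak centres from the nearest coding TSS, in kb, against the percentage of peaks of each class and of genomic windows in each bin. Shared peaks pile up within 1 kb, where 57 of 377 lie within 0.1 kb, and HB only peaks follow the windows more closely, with a median of 40615 bp.

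C/EBP words separated the classes both in how many peaks held one and in which form they held. A C/EBP word was any of TTGCGCAA, TTGCGTAA, TTGCACAA and TTGCATAA on either strand. It was found in 245 shared peaks (65.0%), 785 HP only peaks (36.5%) and 69 HB only peaks (25.6%), against 2.69% of the windows. Shared peaks held it more often than HP only peaks by 28.5 points (Newcombe interval 23.1 to 33.5, adjusted exact p = 1.2e-23 by Fisher's exact test). HB only peaks held it less often than HP only peaks, with a difference of -11.0 points (-16.2 to -5.08, adjusted exact p = 0.00085). That second difference depended on which peaks were counted. The difference was -6.95 points without chromosome 8 (adjusted exact p = 0.085), and 4.89 points in the other direction in the first 50% of each deposited list (adjusted exact p = 0.75). Where a word was present it lay near the peak centre, at a median of 7 bp in shared, 15 bp in HP only and 13 bp in HB only peaks.

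The form of the word differed between shared and HP only peaks. TTGCGCAA, the full palindrome, which contains a CpG, was in 158 shared peaks (41.9%), 150 HP only peaks (6.98%) and 35 HB only peaks (13.0%), and in 0.0336% of the windows. TTGCACAA, which has no CpG, was in 420 HP only peaks (19.5%), 48 shared peaks (12.7%) and 24 HB only peaks (8.89%), and in 1.24% of the windows. The difference between shared and HP only peaks was 34.9 points for TTGCGCAA (29.9 to 40.1, adjusted exact p = 6e-60) and -6.80 points for TTGCACAA (-10.3 to -2.72, adjusted exact p = 0.0034). Among peaks with any C/EBP word, TTGCGCAA was present in 64.5% of the shared, 50.7% of the HB only and 19.1% of the HP only peaks, and TTGCACAA in 19.6%, 34.8% and 53.5%. Peaks away from promoters gave the same contrast, with TTGCGCAA in 71.0% of shared and 19.6% of HP only peaks that held a word. HB only peaks exceeded HP only peaks in TTGCGCAA by 5.99 points (2.31 to 10.6, adjusted exact p = 0.0032), and by 4.48 points when promoter peaks were left out (adjusted exact p = 0.056). At promoters, TTGCGCAA lay in shared peaks within 36 bp of the TSS of Spty2d1, Abcc5, Nup35, Eid2b, Foxf2, Smad6, Rpia and Man1b1. The HP only peaks with TTGCGCAA nearest to a TSS were those of Dido1, Zfp1, Slc34a2, Canx and Brinp3, at 6 to 48 bp, and the last 2 encode calnexin, a chaperone of the endoplasmic reticulum, and a neural protein. TTGCGTAA, the other word with a CpG, was in 9.55% of shared and 5.95% of HP only peaks, a difference of 3.60 points (adjusted exact p = 0.024) that was 0.0343 points among distal peaks (adjusted exact p = 1) and 2.72 points with tRNA peaks kept (adjusted exact p = 0.068). TTGCATAA was in 3.45% and 5.16% (adjusted exact p = 0.28).

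**Figure D3:**
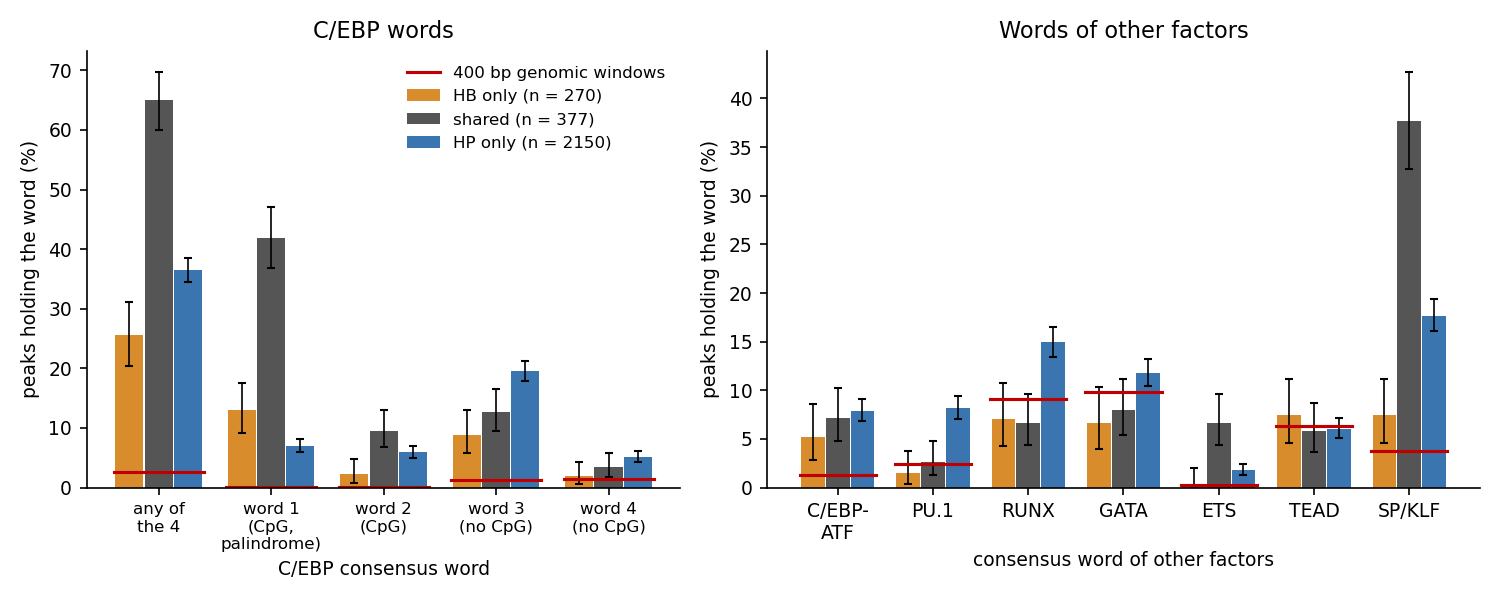
The percentage of HB only, shared and HP only peaks holding each C/EBP word (left, words 1 to 4 being TTGCGCAA, TTGCGTAA, TTGCACAA and TTGCATAA) or a word of another factor (right), with exact 95% intervals and the share of genomic windows as a red line. Word 1 stands at 41.9% in shared peaks and 6.98% in HP only peaks, and word 3 at 12.7% and 19.5%.

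Words of PU.1 and RUNX factors were more frequent in HP only peaks than in shared peaks. The PU.1 word GAGGAAGT was in 176 HP only peaks (8.19%), 10 shared peaks (2.65%) and 4 HB only peaks (1.48%), against 2.39% of the windows. The difference of shared minus HP only peaks was -5.53 points (-7.26 to -3.12, adjusted exact p = 0.00012). The RUNX word TGTGGTT was in 14.9% of HP only, 6.63% of shared and 7.04% of HB only peaks, against 9.07% of the windows, and the difference between shared and HP only peaks passed the test (adjusted exact p = 1.8e-05). The ETS word CCGGAAGT, which shares its last 6 bases with the PU.1 word, was in 6.63% of shared, 1.77% of HP only and 0.370% of HB only peaks (adjusted exact p = 4.4e-06 for shared against HP only). GGGCGG, the word of SP and KLF factors that is common at CpG-rich promoters, was in 37.7% of shared, 17.7% of HP only and 7.41% of HB only peaks, against 3.76% of the windows. All 3 pairs of classes passed the test, but among distal peaks the difference of HB only minus HP only was -4.15 points (adjusted exact p = 0.06). The TEAD word CATTCCA was in 7.41%, 5.84% and 6.05% of HB only, shared and HP only peaks, against 6.34% of the windows, and no pair of classes passed the test. For HB only against HP only peaks the TEAD difference was 1.36 points (-1.42 to 5.23). All words were searched on both strands.

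PU.1 binding itself was compared through the PU.1 peak list of HP cells. It overlapped 374 HP only peaks (17.4%), 26 shared peaks (6.90%) and 0 of the 270 HB only peaks, which allows a share of up to 1.11% by the limit of 3 counts and of up to 1.36% by the exact 95% interval. The difference between shared and HP only peaks was -10.5 points (-13.2 to -7.11, adjusted exact p = 1.9e-07). In MAC cells PU.1 peaks overlapped 56.1% of HP only, 43.8% of shared and 6.67% of HB only peaks. Of the 374 HP only peaks with PU.1 in HP cells, 27.8% held the PU.1 word and 28.1% a C/EBP word, and 97.6% overlapped a PU.1 peak of MAC cells. Of the 1776 HP only peaks without PU.1 in HP cells, 4.05% held the PU.1 word and 38.3% a C/EBP word. GFI1B, a repressor of early blood development, had HP peaks at 25 shared (6.63%) and 75 HP only sites (3.49%), and RUNX1 at 12 (3.18%) and 57 (2.65%). Both had 0 peaks at HB only sites. Leaving out regions bound in 9 or more lists brought the GFI1B difference between shared and HP only peaks from 3.14 points (adjusted exact p = 0.013) to 2.16 points (adjusted exact p = 0.096).

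Each peak was assigned to the coding gene with the nearest TSS, which named 2374 of 21000 genes. HB only peaks named 261 genes (1.24% of all genes), shared peaks 364 (1.73%) and HP only peaks 1876 (8.93%). These shares are the background for the groups below, which hold 748 genes in 24 lists, were chosen with results of these data known, and are described by counts without a test. Over all groups, HB only peaks were nearest to 4 genes (0.535%), shared peaks to 39 (5.21%) and HP only peaks to 136 (18.2%). The 4 genes of the HB only class were Efnb2, an endothelial ligand, Esrrb, a pluripotency factor, Bmp7, a BMP ligand, and Eif2b2, a subunit of a translation initiation factor. None of these 4 peaks lay within 10 kb of the TSS.

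**Figure D4:**
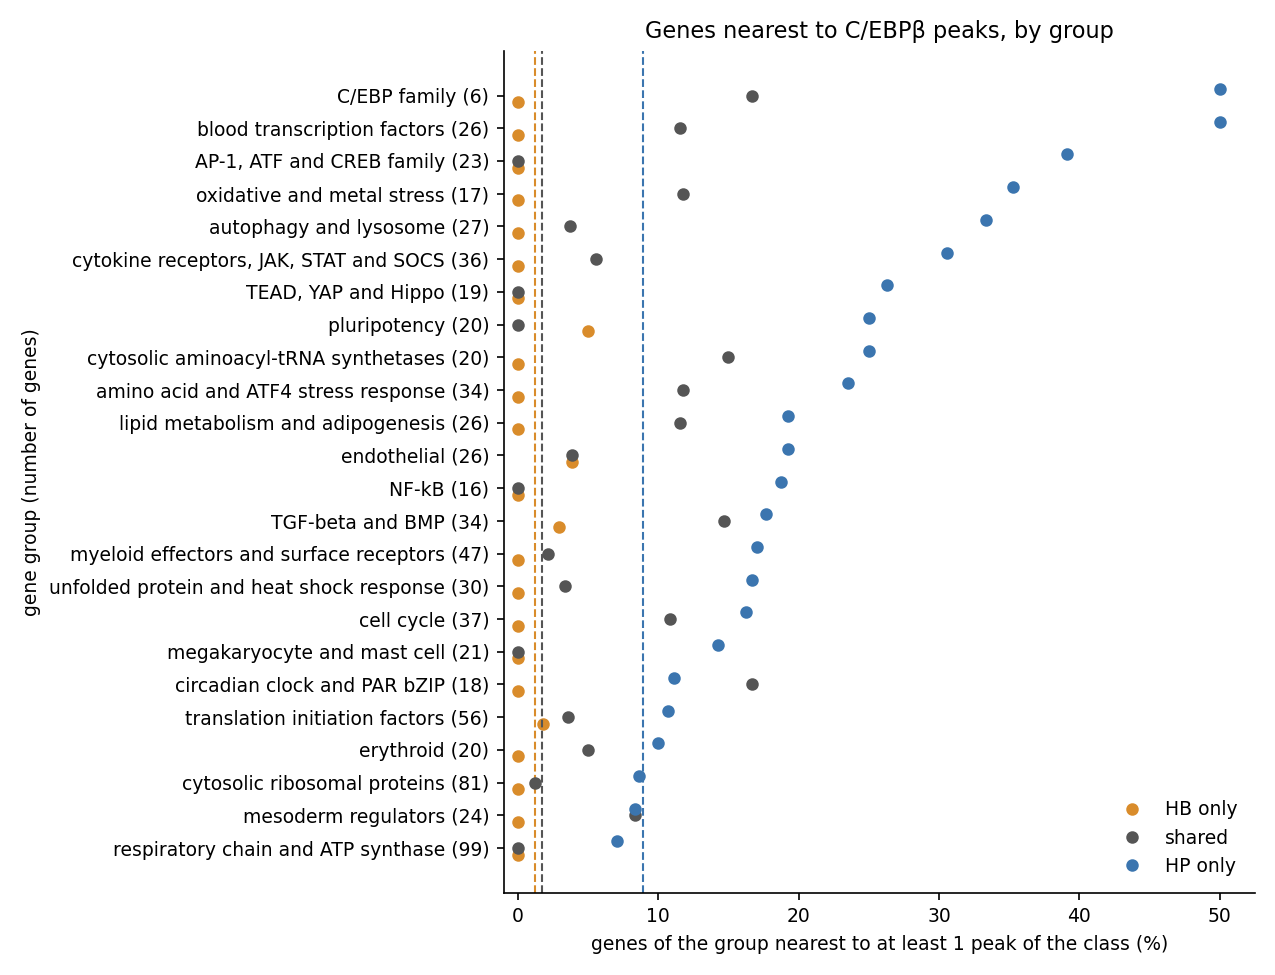
For each of 24 gene groups, the percentage of its genes nearest to at least 1 HB only, shared or HP only peak, with the share over all 21000 coding genes as a dashed line of the same colour (1.24%, 1.73% and 8.93%). Blood transcription factors and the small C/EBP family are at 50% for HP only peaks, ribosomal protein and respiratory chain genes lie just below the dashed line, and most groups are at 0 for HB only peaks.

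Blood transcription factors were, with the small C/EBP family, the group with the highest share of genes named by an HP only peak at any distance. Of 26 such genes, 13 (50%) had an HP only peak, 3 had a shared peak and 0 had an HB only peak. Within 10 kb of the TSS, 9 (34.6%) had an HP only peak, against 4.44% of all coding genes, next to 8 of 23 (34.8%) in the AP-1, ATF and CREB family. A median of 4.5 genomic windows lay nearest to each gene of the group, against 2 for all coding genes, and the part of this in the counts was not tested. Of the 20 HP only peaks of the group, 19 were in the MAC list and 0 in the MES list. Over all HP only peaks the shares were 95.2% and 11.0%, so neither count is read as a feature of the group. Spi1 had an HP only peak at chr2:91082886-91083285, 680 bp downstream of a TSS, without a C/EBP word, and it coincided with PU.1 and RUNX1 peaks in HP. A second Spi1 peak, at chr2:91098159-91098558, lay 1658 bp downstream of another annotated TSS of the gene. The first peak lay upstream of that other TSS. The second peak held the TTGCACAA site shown above and had no PU.1 peak in HP. Runx1, the regulator of hemogenic endothelium, had a shared peak 18287 bp upstream, bound also in MES and MAC cells. This peak held the composite C/EBP-ATF word and none of the 4 C/EBP words. The gene also had HP only peaks at 24272, 81954 and 381810 bp, of which the nearest coincided with RUNX1, GATA2 and PU.1 peaks in HP. Gfi1, a repressor related to GFI1B, had a shared peak 33405 bp upstream at which GATA1, GATA2, GFI1B, RUNX1 and PU.1 were also listed in HP. Gfi1b itself had an HP only peak 2898 bp downstream of the TSS with a TTGCACAA word. Nfe2, a basic leucine zipper factor of megakaryocytes and erythroid cells, had an HP only peak 12 bp downstream of the TSS that coincided with GATA1, GATA2, RUNX1 and PU.1 peaks. Myb, which sustains blood progenitors, had HP only peaks 4405 and 29733 bp downstream, of which the first held TTGCGCAA and was also in the MAC list. Lmo2, Ikzf1 and Etv6 had 2 HP only peaks each, and Fli1, Hhex, Lyl1 and Meis1 had 1 each.

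Of the 6 members of the C/EBP family, Cebpb, Cebpe and Cebpg were nearest to HP only peaks and Ddit3 to a shared peak. Within 10 kb of the TSS, 2 of the 6 (33.3%) had an HP only peak. The 2 Cebpb peaks lay 65226 and 71213 bp downstream of the TSS, each held a TTGCACAA word and each coincided with PU.1 peaks in HP and MAC. The Cebpe peak, 6183 bp from a TSS, held no C/EBP word and coincided with GATA1, GATA2, GFI1B and RUNX1 peaks in HP. Cebpe acts late in granulocyte formation. Cebpg, a family member that lacks an activation domain, had an HP only peak 73 bp downstream of its TSS, and this peak was in the HP, MES and MAC lists and not in the HB list.

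Genes of the amino acid and ATF4 stress response were bound at sites without any of the 4 C/EBP words. Of 34 genes of this response, 4 had a shared peak (11.8%) and 8 an HP only peak (23.5%), and none had an HB only peak. The shared genes were Ddit3, Trib3 (a pseudokinase induced by stress), Pycr1 (proline synthesis) and Slc7a5 (an amino acid transporter). The HP only genes were Atf3, Cebpg, Chac1, Eif4ebp1, Gdf15, Shmt2, Slc3a2 and Slc7a11. All 12 peaks lay within 10 kb of the TSS, and 3 of the 4 shared and 8 of the 8 HP only peaks were promoter peaks. None of these 12 peaks held any of the 4 C/EBP words. Over all promoter peaks, 59.2% of the shared and 25.4% of the HP only ones held a C/EBP word. The composite C/EBP-ATF word was in 3 of the 4 shared and 4 of the 8 HP only peaks. It was in 7.16% of all shared and 7.91% of all HP only peaks and 1.26% of the windows. These shares cover peaks at any distance and not promoter peaks alone. The word TGATGCAA shares 7 of its 8 bases with TTATGCAA, the minus strand of TTGCATAA. Aminoacyl-tRNA synthetases, which charge tRNAs with amino acids, had the same pattern. Of 20 cytosolic synthetase genes, Farsb, Iars and Sars had a shared peak and Aars, Gars, Mars1, Nars and Yars an HP only peak. All 8 peaks were promoter peaks, and none held any of the 4 C/EBP words. The composite word was in 3 of the 3 shared and 4 of the 5 HP only peaks. Of the 8 HP only stress response peaks 4 were in the MES list, and of the 5 HP only synthetase peaks 4 were. Over all HP only peaks this share was 11.0%. Of the 582 HP only promoter peaks, 102 were in both the MES and the MAC list and 0 in the MES list without the MAC list.

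Genes of the AP-1, ATF and CREB family, the relatives of C/EBPβ among leucine zipper factors, were examined next. Of 23 genes, 9 (39.1%, against 8.93% of all coding genes) had an HP only peak, 0 had a shared peak (against 1.73%) and 0 an HB only peak (against 1.24%). They were Atf1, Atf3, Atf7, Crem, Fos, Fosb, Fosl2, Jdp2 and Junb. Fosb was bound 9 bp upstream of its TSS and Atf3 32 bp downstream. The Fos peak, 4971 bp upstream, coincided with PU.1 peaks in HP and MAC. Of the 10 HP only peaks of the group, 1 held a C/EBP word, and the Atf3 and Fosl2 peaks were also in the MES list. Over all HP only peaks, 36.5% held a C/EBP word and 11.0% were in the MES list. In the circadian group, Cry2, Per1 and Nfil3 had shared peaks at promoters. All 4 of these peaks held a C/EBP word and were also in the MES and MAC lists. Over all shared peaks, 65.0% held a C/EBP word, 83.3% were in the MES list and 97.6% in the MAC list. The Per1 site lay 18 bp upstream of its TSS, and the Cry2 site, with TTGCGCAA, 562 bp upstream. Of the 18 genes of the circadian group, 3 (16.7%) had a shared peak, and Per2 and Rora had 3 HP only peaks, of which 1 held a C/EBP word.

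Myeloid and cytokine signalling genes are read against 8.93% of all coding genes and 18.2% of all genes in the groups with an HP only peak. Over all genes, 1876 of the 2374 with any peak had an HP only peak, so that the predominance of this class within a group is no feature of the group. Of 47 myeloid effector and receptor genes, 8 (17.0%) had an HP only peak. They were Ccl3, Csf3r, Cyba, Il6, Itgb2, Mpo, Ptprc and Sirpa. All 8 peaks were in the MAC list, 0 in the MES list and 2 at PU.1 peaks of HP cells. Over all HP only peaks these shares were 95.2%, 11.0% and 17.4%, so the counts are not read as a feature of the group. Mpo, the myeloperoxidase of granulocytes, was bound 3608 bp upstream together with GFI1B. Il6, an inflammatory cytokine and long-known C/EBPβ target, was bound 1742 bp downstream of the TSS in coding sequence with a TTGCACAA word. Its receptor gene Il6ra had the 1 shared peak of the group, 152 bp upstream of the TSS. Of 36 genes of cytokine receptors, JAK kinases, STAT factors and SOCS inhibitors, 11 (30.6%) had an HP only peak and 2, Il3ra and Jak1, a shared peak. The HP only genes were the receptors Kit, Lifr, Il4ra, Il10ra and Ifngr2, the signalling genes Jak2, Stat3 and Stat5b, the inhibitors Socs1 and Socs3, and the repressor Bcl6. Within 10 kb of the TSS, 6 of the 36 genes (16.7%) had an HP only peak.

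Of 17 genes of the oxidative and metal stress response, 6 (35.3%) had an HP only peak and 2 (11.8%) a shared peak, against 8.93% and 1.73% of all coding genes. Gclc, which starts glutathione synthesis, and Sod1, the cytosolic superoxide dismutase, had 4 HP only peaks each. Hmox1, heme oxygenase, and Nfe2l2, which encodes the antioxidant regulator NRF2, had a shared peak at the promoter and an HP only peak farther away, at 9700 and 18966 bp. Of 27 autophagy and lysosome genes, 9 (33.3%) had an HP only peak, among them the cathepsins Ctsb, Ctsd and Ctsl and the regulators Tfeb, Tfec and Mitf, and 6 (22.2%) had one within 10 kb.

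Of 24 mesoderm regulators, Gsc and Lhx1 had a shared peak with TTGCGCAA 1579 and 2734 bp downstream of the TSS, and Hand1 and Pdgfra had an HP only peak. Within 10 kb of the TSS this group had 2 genes with a shared peak (8.33%, against 0.976% of all coding genes) and 1 with an HP only peak (4.17%, against 4.44%). Of 26 endothelial genes, 5 (19.2%) had an HP only peak, against 8.93% of all coding genes, but none within 10 kb of a TSS. The 5 were Aplnr, Efnb2, Esam, Flt1 and Nrp1. Flt1, which encodes a VEGF receptor, had a shared promoter peak 1157 bp upstream with TTGCGCAA. In the TGF-β and BMP group of 34 genes, 5 (14.7%) had a shared peak and 6 (17.65%) an HP only peak, against 1.73% and 8.93%. The inhibitor Smad6 was bound 16 bp upstream of its TSS at the shared site shown above, and Smad3 had 2 shared peaks. Of 19 genes of the Hippo pathway and its TEAD factors, 5 (26.3%) had an HP only peak, against 8.93% of all coding genes. The 5 were Amotl2, Lats2, Tead1, Vgll4 and Wwtr1. Within 10 kb of a TSS, 2 (10.5%) had an HP only peak, against 4.44%. A median of 5 genomic windows lay nearest to each gene of this group, against 2 for all coding genes. The part of this in the counts was not tested. Of 81 ribosomal protein genes, 7 (8.64%) had an HP only peak, and of 99 respiratory chain and ATP synthase genes, 7 (7.07%), next to 8.93% of all coding genes.

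Peaks of both single-list classes were sometimes found at the same gene. Of the 261 genes with an HB only peak, 49 also had an HP only peak, 47 of them without a shared one. Of the 364 genes with a shared peak, 71 also had an HP only peak. Over all coding genes, 8.93% had an HP only peak. Genes differ in the length of sequence nearest to them, and the part of this in these counts was not tested. Trib1, a pseudokinase that promotes degradation of C/EBP proteins, had a shared promoter peak 149 bp upstream of its TSS with TTGCACAA and 4 HP only peaks from 1925 to 135806 bp. Klf3, a repressor of the KLF family, had 3 shared peaks and 1 HP only peak. The genes with the most HP only peaks included Zfp608 and Sipa1l2 with 5 each, and Rreb1, Zfp217 and Irf2, of which Irf2, an interferon response regulator, had 4. Isx, Mamdc2, Klf6, Foxp1 and Auts2 had 3 peaks each that were HB only or HP only. At Grm8, a glutamate receptor gene, an HB only peak 1079 bp and an HP only peak 11910 bp downstream of the TSS both held TTGCGCAA.

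The HB only class was mixed. Of its 270 peaks, 99 were also in the MES or the MAC list, and 54 of these (54.5%, exact interval 44.2 to 64.6) held a C/EBP word. The other 171 were in neither list, and 15 of them (8.77%, 4.99 to 14.1) held one, against 2.69% of the windows. In no other list of the series were 165 HB only peaks found. HB only peaks with TTGCGCAA nearest to a TSS were those of Ids, 13 bp downstream, Tdrd9 (a helicase of germ cells), 137 bp downstream, and Insrr, 883 bp upstream. The Ids and Insrr peaks were also in the MES and MAC lists, and the Tdrd9 peak was in no other list. Dact1, a regulator of Wnt signalling, had 2 HB only peaks with C/EBP words, 95487 and 128573 bp downstream of its TSS, and both were in the MAC list. Sfi1, a centrosome gene, had the most HB only peaks, 3 within 5 kb of each other in its introns. None of these held a C/EBP word, and 2 were also GATA2 peaks in HP cells. No filter for regions prone to false signal was applied here.

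A part of the HB only class lay on chromosome 8, a property noticed after the values were seen and given without a test. This chromosome held 50 of the 270 HB only peaks (18.5%), 20 of the 377 shared peaks (5.31%) and 155 of the 2150 HP only peaks (7.21%), and it makes up 4.91% of the length of the chromosomes searched. Of these 50 peaks, 8% held a C/EBP word and 16% were in the MAC list, against 29.6% and 37.7% of the 220 HB only peaks on the other chromosomes. Of the 8 genes with 2 or more HB only peaks, 6 were on it, namely F7, Poteg, Isx, Spaca7, Dctd and Dusp26, and 1 of their 12 peaks held a C/EBP word. The copy number of chromosome 8 in these cells was not measured here. In other lists of the series chromosome 8 held between 2.27% (HE C/EBPβ) and 16.5% (HB GATA2) of the peaks. The part of this in the difference between HB only and other peaks was examined only by repeating the comparisons without chromosome 8.

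Position in the deposited lists moved with the class of a peak. The order of the rows is not explained in the sources used here. In the first 10% of the HB list 94.4% of the peaks were shared and 81.7% held a C/EBP word, and in the last 10% 23.4% and 21.9%. In the HP list the shared peaks fell from 55.8% to 3.50% and the C/EBP word from 63.8% to 34.2%, while the share in the MAC list was 97.6% in the first 10% and 90.3% in the last. Along the HB list the share in the MAC list fell from 97.2% to 43.8%.

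**Figure D5:**
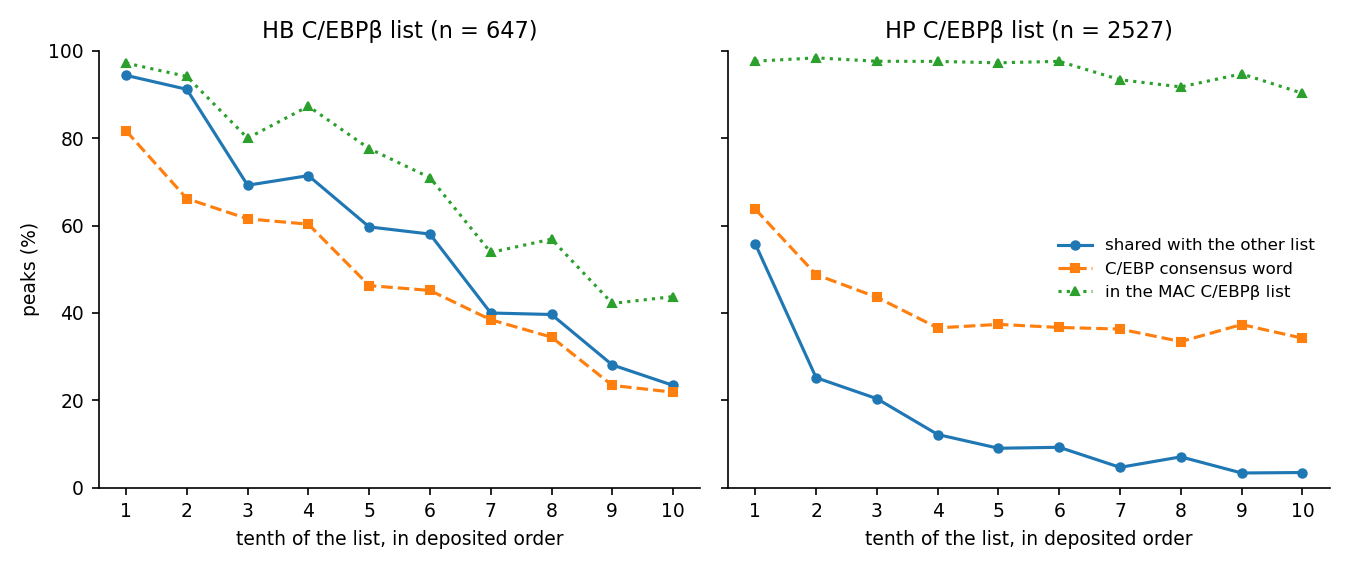
The percentage of HB (left) and HP (right) C/EBPβ peaks that were shared, held a C/EBP word or were in the MAC C/EBPβ list, by successive 10% of the list in deposited order. All 3 lines fall along the HB list, from 94.4% to 23.4% for shared peaks, and in the HP list the MAC line stays at or above 90.3%.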

How the data were processed

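Transcription factor binding was measured by ChIP-seq. The authors trimmed adapters with CutAdapt, aligned reads to mm10 with Bowtie, kept uniquely placed reads, removed duplicates with Picard, called peaks with MACS against the input of the same stage at a p cut-off chosen by eye for each list, refined them with polyPeak and fixed them at 400 bp around the summit. Technical runs of the HP library were merged. Their versions are not given in the sources used here, and the read depth, which the study tabulates, was not used here. The deposited values are peak positions only, with no score or count.

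Positions were compared with the RefSeq annotation of GRCm38 (26032 coding TSS of 21000 genes). Overlaps of 1 bp defined the classes. A shared site was counted once, by its HB peak. Shares carry exact 95% intervals, which cover counting error only. Fisher's exact test (two-sided) was adjusted by Benjamini-Hochberg over 84 tests. Genes were named by fixed rules: members of 24 gene groups with a peak, the 8 genes per class with the most peaks, the 8 per class with TTGCGCAA nearest to a TSS, genes at regions bound at all 5 stages, and 5 genes with HB only and HP only peaks. The members and lists were chosen with earlier results of these data known. Alternatives were the overlap, the tRNA and promoter distances, the TSS set, regions bound in many lists, distal peaks, the window searched and the gene distance. Overlap, word search and tests were tested on simulated data. Python 3.11.15, NumPy 2.4.6, SciPy 1.17.1, pandas 2.3.3, pysam 0.24.0 and Matplotlib 3.10.9 were used.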

Additional observations from a re-analysis of the deposited data

How the results depend on the processing

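Of the alternatives, the 2 kb tRNA distance, other promoter widths (1 and 5 kb), TSS of all transcripts and the central 100 bp changed no direction and no side of the threshold. Requiring 200 bp of overlap could change nothing, since shared peaks overlapped by at least 306 bp. For the MAC C/EBPβ share, shared minus HP only was 2.40 points, -1.08 with tRNA peaks kept, 2.64 (past the threshold) without regions bound in 9 or more lists and -0.152 in the first 50% of each list. The C/EBP word difference of HB only minus HP only peaks was -11.0 points, -6.95 without chromosome 8 and 4.89 in the first 50%. These last 2 settings were chosen after seeing the data. In the first 50% there were 75 HB only and 941 HP only peaks. In 16 further cases a difference between classes was no longer past the threshold. Among distal peaks these were TTGCGCAA and SP/KLF (HB only against HP only) and TTGCGTAA (shared against HB only and HP only). Without chromosome 8 they were TTGCGTAA and TTGCATAA (HB only against HP only), with tRNA peaks kept TTGCGTAA (shared against HP only), and without regions bound in 9 or more lists GFI1B (shared against HP only). In the first 50% they were TTGCACAA, TTGCATAA, RUNX, SP/KLF and GFI1B (HB only against HP only), ETS and TTGCGTAA (HB only against shared) and GFI1B (shared against HP only), and TTGCGTAA, HB only minus HP only, went from -3.73 points to 0.928. Within 10 kb of a TSS the classes named 58, 205 and 933 genes. Differences that were never past the threshold changed sign for RUNX, HB only minus shared, from 0.406 points to -0.0125 (tRNA peaks kept), -0.390 (shared sites counted by the HP peak) and -0.463 (distal peaks), for TEAD, shared minus HP only, from -0.211 to 0.156, 0.0543 and 0.932 in the same settings and 0.439 in the first 50%, and for TEAD, HB only minus shared, from 1.57 to -0.0618 (distal peaks). The causes were not tested. No paired analysis was possible because each group held 1 list. A stricter peak threshold was not run because the lists hold no scores, and the read depth behind each list was not used here.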

Other observations

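The peaks left out at tRNA genes differed from the classes above. All but 2 of the 68 HB peaks at tRNA genes were also HP peaks, while 123 of the 189 HP peaks at tRNA genes were not in the HB list. A C/EBP word was found in 3 of the 66 shared ones (4.55%) and in 7 of the 123 found in HP alone (5.69%), against 65.0% and 36.5% of the shared and HP only peaks elsewhere. Of the 66 shared tRNA peaks in HB, 44 were also in the HE list of C/EBPβ, against 15 of the 377 shared peaks elsewhere, and 33 (50%) were in the MAC list.

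Genes of other groups were bound as follows. For comparison, 1.73% of all coding genes and 5.21% of all genes in the groups had a shared peak, and 8.93% and 18.2% an HP only peak. Of 37 cell cycle genes, 4 (10.8%) had a shared peak and 6 (16.2%) an HP only peak. Myc, a growth regulator, had a shared peak 1741 bp upstream of its TSS with TTGCACAA and 3 HP only peaks 167016 to 343144 bp away. The cyclin-dependent kinase inhibitors Cdkn1b, Cdkn1a and Cdkn2b had 1 shared, 1 HP only and 2 HP only peaks. Of 26 genes of lipid metabolism, 5 (19.2%) had an HP only peak, among them the cholesterol exporter Abca1 with 2, and Nr1h3, which encodes a liver X receptor, had a shared promoter peak 77 bp upstream. Of 20 pluripotency genes, 5 (25%) had an HP only peak, and 1 (5%) had one within 10 kb of the TSS, against 4.44% of all coding genes. A median of 6 genomic windows lay nearest to each pluripotency gene, against 2 for all coding genes. Of 21 megakaryocyte and mast cell genes, 3 (14.3%) had an HP only peak, none within 10 kb.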
